A study of Mus musculus with 4 samples.

Results

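The cells described here were neurons from dissected mouse embryonic hypothalamus that carried Lhx9 transcripts at embryonic day 11. They were chosen from the count table as cells of run 2 of the E11 sample with at least 3 unique molecular identifiers (UMIs, each standing for 1 captured transcript) of Lhx9 and at least 3 UMIs of Stmn2 and Dcx together, a pair of genes of young neurons. The rule found 345 cells among the 4389 cells of that run and the 43261 cells of the whole table. They were 12.5% (95% exact binomial interval 11.3 to 13.8) of the 2752 cells of the run with at least 3 Stmn2 and Dcx UMIs, and they held 89.9% of its Lhx9 UMIs. The choice used measured Lhx9, Stmn2 and Dcx counts, so the levels of those genes describe the selection and are not results. Lhx9 ran from 3 to 42 UMIs per cell, with a median of 8. The 38 cells with exactly 3 Lhx9 UMIs, just inside the threshold, had at least 3 Tbr1 and Eomes UMIs together in 71.1% of cells. The 58 neurons with 2 Lhx9 UMIs, just outside it, did so in 48.3%, and the 2190 neurons with no Lhx9 UMI in 3.74%. On the neuronal side, 7 cells had at least 3 Lhx9 UMIs but fewer than 3 Stmn2 and Dcx UMIs, while 32 cells inside the rule had 3 to 9.

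All samples came from C57BL/6J mice of the genotype Rax-CreERT2::Ai14, in which tamoxifen activates a Cre recombinase driven by Rax, a gene of the early hypothalamic neuroepithelium, and Cre switches on the red fluorescent protein tdTomato. Tamoxifen was given at embryonic day 9 according to the study's design and at 9.5 according to the protocol. Hypothalami were dissected at E11 (E11.5 in the age label), E14 (E14.5), P0 and P7 (7.5), live red cells were sorted, and single-cell 3′ libraries were made, with 1 sample per age. There was no unlabelled or untreated group, and neither the number of animals pooled in a sample nor what separates run 1 from run 2 in the cell names is given in the sources used here. With 1 sample per age there is no replicate error, so no test was made: levels are summed UMIs scaled to a total of 1000000 (CPM), intervals are 95% exact Poisson or binomial intervals, and both cover counting error only.

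Lhx9 encodes a LIM homeodomain transcription factor, a close relative of Lhx2, and is known from neurons of the diencephalon and hypothalamus, where it takes part in specifying hypocretin neurons. Tbr1 and Eomes are T-box transcription factors best known from forebrain glutamate lineages, in which Eomes marks newly committed cells and Tbr1 marks neurons that have left the cell cycle. Slc17a6 encodes the vesicular glutamate transporter that defines most glutamate neurons of the hypothalamus, and Gad1, Gad2 and Slc32a1 make and load GABA. In GRCm38.p6 (mm10), Lhx9 lies on chromosome 1 (138825186 to 138848839), Tbr1 on chromosome 2 (61802863 to 61814114), Eomes on chromosome 9 (118478186 to 118486132), Uncx on chromosome 5 (139543865 to 139548179) and Crabp1 on chromosome 9 (54764748 to 54773110).

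The 345 Lhx9 neurons had a median of 15489 UMIs (range 3930 to 44913), against 15292 in the 2190 other neurons of the run, which had no Lhx9 UMI. Across the 7 runs the median depth lay between 6059 and 15369 UMIs. Transcripts of tdTomato were found in 74.8% of Lhx9 neurons (265 CPM, interval 252 to 279) and in 87.7% of other neurons (363 CPM, 357 to 370). Of the 345 Lhx9 neurons, 21 had a doublet score in the top 5% of the run, as had 140 of the 2190 other neurons. In the Lhx9 neurons the summed level was 4.74 CPM for 9 mesenchyme markers (13.7 in other neurons) and 3.34 CPM for 7 endothelial and mural markers (4.04). It was 0.176 CPM for 4 microglia markers (0.585) and 22.5 CPM for 3 neural crest markers (26.9). Haemoglobin genes summed to 459 CPM, against 483 in other neurons, and whether this was free RNA was not tested. Cell barcodes of 3 Lhx9 neurons also occurred in E14 run 2, of 1 in P0 run 2 and of 1 in P7.

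The label given to these cells names Lhx9, Eomes, Tbr1, Uncx and Crabp1, and 3 of the 4 genes that the rule did not use were spread through the population. Tbr1 was found in 260 of the 345 cells, with a median of 5 UMIs and a highest value of 24. Uncx, a homeodomain factor, was found in 308 cells with a median of 9. Eomes was found in 182 cells, and 153 cells held both Tbr1 and Eomes. Altogether 264 cells (76.5%, interval 71.7 to 80.9) had at least 3 Tbr1 and Eomes UMIs, 25 had 1 or 2 and 56 had none. Of other neurons, 2.15% had a Tbr1 UMI, 33.8% Uncx and 7.21% Eomes. Of the 871 cells of the run with no Stmn2 or Dcx UMI, 1.15% had Tbr1, 8.96% Uncx and 4.59% Eomes. Crabp1, which encodes a retinoic acid binding protein, did not mark the population. Its pooled level was 485 CPM against 109 in other neurons, but a Crabp1 UMI was found in only 59 Lhx9 neurons (17.1%, against 20.8% of other neurons), and 10 cells held 95.2% of its 2763 UMIs. With every cell thinned to 3000 UMIs, 7.25% (4.74 to 10.5) of Lhx9 neurons and 10.5% (9.25 to 11.9) of other neurons had a Crabp1 UMI. The map of single cells shows Lhx2 and Uncx across nearly the whole set. An Lhx2 UMI was also found in 59.7% of other neurons and 88.7% of the cells with no Stmn2 or Dcx UMI. High Crabp1 counts lie in a narrow block, which was itself chosen partly by Crabp1. Of the 59 cells with a Crabp1 UMI, 14 lay in that block.

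**Figure D1:**
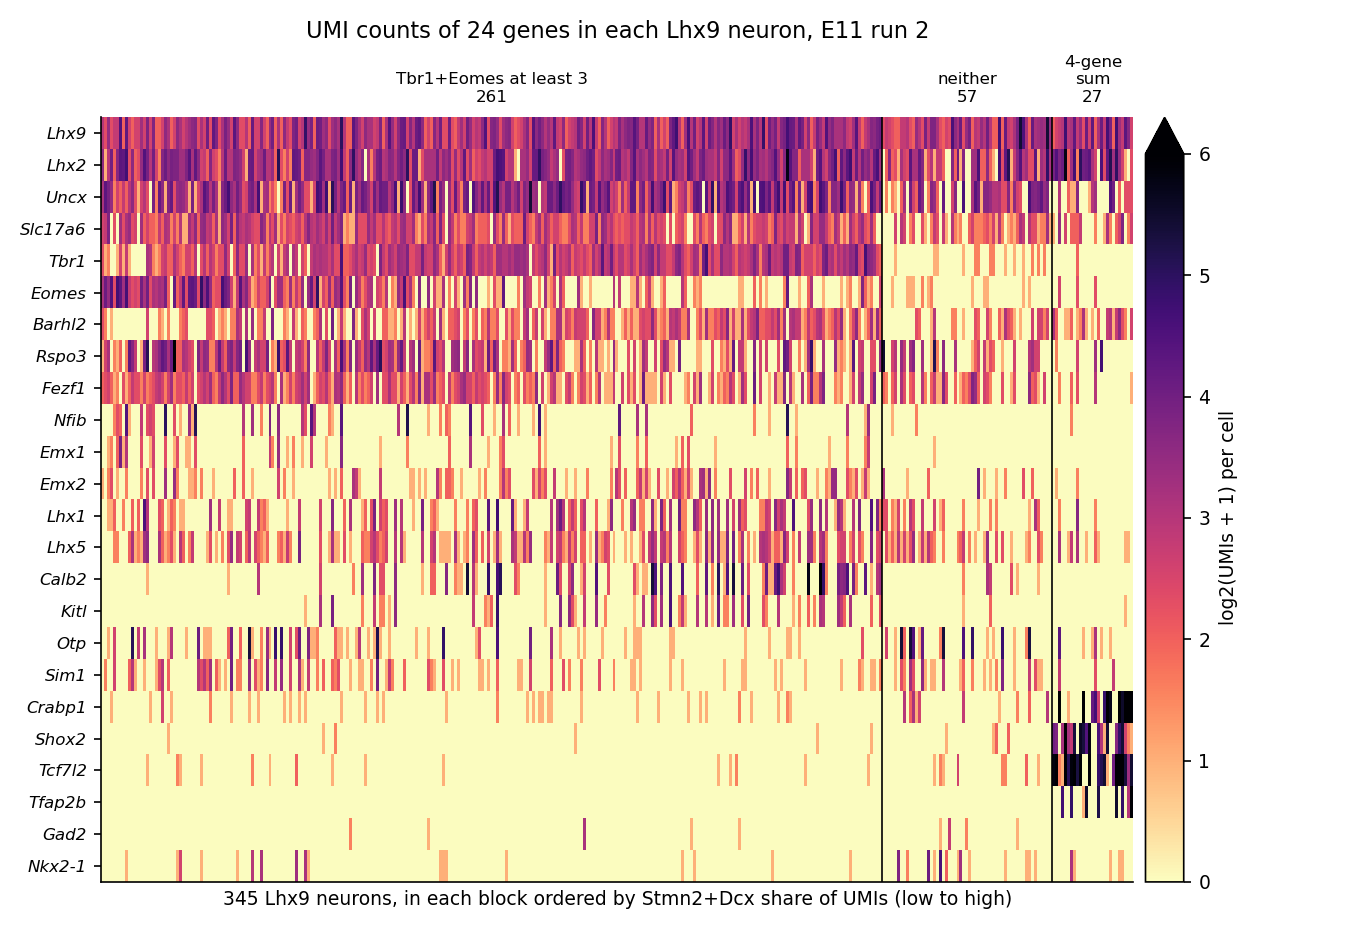
UMI counts of 24 genes (rows) in each of the 345 Lhx9 neurons of E11 run 2 (columns), as log2(UMIs + 1), darker for more. Columns are in 3 blocks, first by at least 10 UMIs of Crabp1, Shox2, Tcf7l2 and Tfap2b together (27 cells, at right), then by at least 3 Tbr1 and Eomes UMIs (261 cells, at left) or fewer (57 cells), and ordered within a block by the share of Stmn2 and Dcx UMIs. Lhx2 and Uncx run through the left and middle blocks, while high counts of Crabp1, Shox2, Tcf7l2 and Tfap2b lie in the right-hand block, which they define.

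Transporter transcripts were those of glutamate neurons. At 3000 UMIs per cell, Slc17a6 was found in 50.7% (45.3 to 56.1) of Lhx9 neurons and 13.1% (11.7 to 14.54) of other neurons. It was found in 0.918% of 871 non-neuronal cells of similar depth, which had no Stmn2 or Dcx UMI and were used as the background. Gad1, Gad2 or Slc32a1 was found in 1.74% (0.641 to 3.75) of Lhx9 neurons and 29.5% (27.5 to 31.4) of other neurons. At this depth the Lhx9 neurons were close to the 1.38% (0.714 to 2.39) of non-neuronal cells. Both kinds of transcript were found in 0.580% of Lhx9 neurons. Without thinning, Slc17a6 was found in 88.7% of Lhx9 neurons, a GABA gene in 7.25% and both in 5.80%. The unthinned shares of non-neuronal cells were 2.07% for Slc17a6 and 4.48% for a GABA gene. Slc17a7, the cortical vesicular glutamate transporter, was low but also higher than elsewhere, at 18.3 CPM against 1.004.

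The first comparison asked which genes set Lhx9 neurons apart from the 2190 other neurons of the same run. Neurons with 1 or 2 Lhx9 UMIs were in neither group. Among them Tbr1 had intermediate levels, at 23.1 CPM in the 159 with 1 UMI and 59.7 in the 58 with 2. A gene was called where the ratio of CPM with 5 added was at least 2-fold, among 12154 genes with at least 100 UMIs over both groups: 167 genes were higher in Lhx9 neurons (1.37% of those tested, Lhx9 included) and 172 were lower (1.42%). After Lhx9 itself, the largest ratio of CPM with 5 added belonged to Tbr1, at 292 CPM (278 to 307) against 1.90 (1.47 to 2.40), a 154-fold difference in CPM (121 to 199). Next came Calb2, the calcium-binding protein calretinin, at 160 CPM against 1.87, and Barhl2, a homeodomain factor, at 165 CPM against 3.51. The scatter of all genes shows these far from the diagonal, with most genes within 2-fold.

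**Figure D2:**
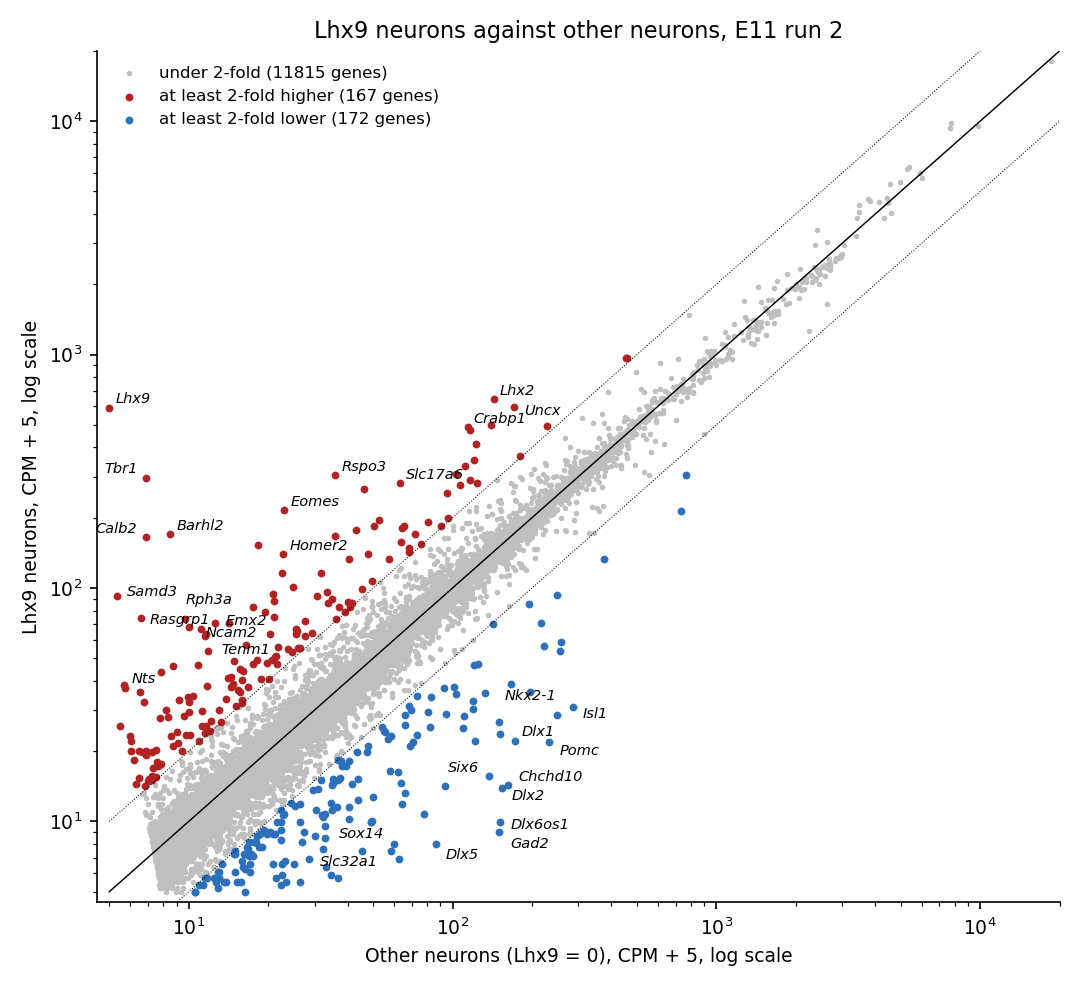
Pooled level of each of 12154 genes in the 345 Lhx9 neurons (vertical) and the 2190 other neurons (horizontal) of E11 run 2, in CPM with 5 added, both axes logarithmic. Dotted lines mark 2-fold; 167 genes lie above and 172 below, with Tbr1, Calb2, Barhl2 and Samd3 among the highest ratios and Gad2, Dlx5 and Dlx6os1 among the lowest.

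Many transcription factors of glutamate lineages were higher. Of 13 T-box and pallial-type genes, 11 were tested and 7 were higher, with none lower (median log2 ratio 1.75, against -0.03 over all genes). The list was chosen with earlier results of these data known, and the label of these cells already names Tbr1 and Eomes. Its count is therefore a description only. Eomes stood at 211 CPM against 18.0, an 11.7-fold difference (10.6 to 12.9), and Uncx at 593 against 165 (3.59-fold, 3.44 to 3.74). Emx2, a homeodomain factor of the dorsal telencephalon, stood at 65.8 CPM against 7.55, and Neurod1, a bHLH differentiation factor, at 276 against 118. Among LIM homeodomain genes Lhx2 was higher at 638 CPM against 138 (4.62-fold), whereas Lhx6, Lhx8 and Isl1 were lower and Lhx1 and Lhx5 were not called. Of the 8 LIM cofactors, Ldb1 and the Lmo genes among them, none was called. With 1.37% of all genes tested higher and 1.42% lower, a list of 8 genes yields few calls. Neurog2, the proneural factor of glutamate lineages, stood at 101 CPM against 48.1 and was not called.

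Most tuberal and anterior hypothalamic factors were lower. Of 19 tested, 15 were lower and 1, Fezf1, was higher (195 CPM against 90.9), with a median log2 ratio of -1.59. Among all genes tested, 1.42% were lower and 1.37% higher. Nkx2-1, the homeodomain factor that patterns the basal hypothalamus, stood at 23.7 CPM against 243, a 10.3-fold difference (8.65 to 12.2). Isl1, a LIM homeodomain factor of arcuate neurons, stood at 25.8 against 280.0, and Six6 at 10.7 against 132. Otp, the homeodomain factor of neuroendocrine neurons, stood at 128 against 370.0 (2.89-fold, 2.68 to 3.12). Of 13 mammillary and floor-plate-type genes tested, 3 were lower and 1 was higher, with a median log2 ratio of -0.49. The 14 genes of this list summed to 310 CPM against 390, and each had a UMI in the Lhx9 neurons. Some were scarce, with Foxb1 found in 4 of the 345 cells, Lmx1a in 5 and Foxa1 in 2. Of 14 GABA-type factors tested, 12 were lower and none higher. Among them Dlx2 stood at 8.95 CPM against 148, Dlx5 at 2.98 against 81.3 and Gad2, from the transmitter list, at 4.04 against 146. Dlx6os1, at 4.92 against 146, is antisense to Dlx6, and whether the counting used strand is not given in the sources used here. Pomc, the precursor of melanocortin peptides, was found at 16.9 CPM against 228.

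Some secreted, guidance and adhesion genes also differed, where over all genes tested 1.37% were higher and 1.42% lower. Rspo3, a secreted amplifier of Wnt signalling, stood at 300 CPM (286 to 314) against 30.8. Of 20 axon guidance receptors tested, 3 were higher and none lower: Epha3, an ephrin receptor, at 261 CPM against 41.0, Nrp2, a semaphorin receptor, at 163 against 31.0, and Unc5c, a netrin receptor, at 65.5 against 9.26. Of 14 guidance ligands tested, 4 were higher (Efna3, Efnb1, Efnb2 and Draxin) and Efna5 was lower, at 41.8 CPM against 116. Among 30 adhesion genes 5 were higher, including Cntn2 at 180 CPM against 45.6, Ncam2 at 63.4 against 5.05 and Tenm1 at 61.4 against 6.11, and Alcam was lower. Of 11 neuropeptide genes tested, Nts (neurotensin, 33.4 CPM against 0.669) and Tac1 (29.1 against 4.93) were higher and 4 were lower. Nts came from few cells, with a UMI in 17 of 345. Other genes with high ratios were Samd3 (87.4 CPM against 0.335), Rasgrp1, a Ras exchange factor (69.7 against 1.62), Rph3a, a synaptic vesicle protein (69.0 against 4.71), and Homer2, a synaptic scaffold (134 against 17.8).

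Few proliferation and maturation genes were called. Over all genes tested 1.37% were higher and 1.42% lower, a share at which lists of 10 or 22 genes yield few calls. None of 10 proliferation genes was called, and of 22 maturation genes Rbfox3 was higher (81.1 CPM against 36.5) and Syt1 lower (65.5 against 212). Of 12 progenitor genes, 6 were lower, among them Sox2 (51.6 CPM against 217) and Sox3 (21.6 against 145), both transcription factors of neural progenitors. Fewer were lower against the glutamate and GABA neurons described below, with 2 lower and 1 higher of 10 tested in each case. The 12 genes summed to 1003 CPM, against 1490.5 in other neurons, 1037 in those glutamate neurons and 990 in those GABA neurons.

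The next comparison was with cells of the same transmitter, 432 other glutamate neurons defined by at least 2 Slc17a6 UMIs, no GABA gene and no Lhx9. Of 9338 genes tested, 127 were higher (1.36%) and 133 lower (1.42%). Tbr1 (292 CPM against 2.97), Calb2 (160 against 2.07), Barhl2 (165 against 4.65) and Samd3 (87.4 against 0.904) again had the highest ratios of CPM with 5 added, apart from Lhx9. Meis2, a TALE homeodomain factor, stood at 276 CPM against 29.98, and Nts at 33.4 CPM against 0 UMIs, which is at least 86.1-fold higher at a floor of 3 counts over the group. Eomes stood at 211 CPM against 36.3. Uncx was not called here. In the other direction Otp was 7.002-fold lower (6.49 to 7.57), at 128 CPM against 896, and Sim1, its bHLH-PAS partner in neuroendocrine neurons, stood at 62.3 against 230. Also lower were Chchd10, a mitochondrial protein (9.30 CPM against 213), Calb1, the calcium-binding protein calbindin (30.7 against 214), and Sox14 (2.98 against 66.2). Of 17 tuberal and anterior factors tested, 10 were lower and none higher. Of 5 GABA-type factors tested, 3 were higher and 1 lower. A UMI of the 14 factors listed was found in 251 of the 345 Lhx9 neurons and 226 of the 432 others. The other glutamate neurons were chosen to hold no GABA gene UMI, a filter not applied to Lhx9 neurons, 25 of which held one. Whether this filter had a part in the difference was not tested. Of 10 proliferation genes 5 were higher, among them Top2a at 64.8 CPM against 18.7. The 10 genes together had a median of 2 UMIs per cell in both groups, with a highest value of 210 in Lhx9 neurons and 88 in the others and 9 in 10 cells at or under 6.6 and 5 UMIs. Gap43, a growth-cone protein, was lower at 310 CPM against 765.

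Against 747 GABA neurons of the run, defined by at least 2 UMIs of Gad1, Gad2 and Slc32a1 together with no Slc17a6 and no Lhx9, 236 of 10009 genes were higher (2.36%) and 187 lower (1.87%). All 10 called T-box and pallial-type genes were higher, with Uncx at 593 CPM against 30.2 and Neurod1 at 276 against 6.41. Nrn1, a secreted promoter of neurite growth, stood at 471 CPM against 1.73, Rspo3 at 300 against 1.82 and Cacna2d1, a calcium channel subunit, at 304 against 8.49. Of 14 GABA-type factors 13 were lower than in these cells, which were chosen by GABA genes, among them Dlx1 at 17.2 CPM against 409. Of 17 tuberal and anterior factors tested, 11 were lower than in GABA neurons and 4 higher, with a median log2 ratio of -1.75. Otp and Sim1 were higher in Lhx9 neurons here (128 CPM against 52.9, and 62.3 against 1.56), the opposite of their direction against glutamate neurons.

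Run 1 of the E11 sample was smaller and shallower. The same rule found 31 Lhx9 neurons there, 16.0% (11.12 to 21.9) of its 194 neurons, with a median of 9314 UMIs. Both runs carry the same sample label, so run 1 is not a separate animal by any label. Of the 166 genes other than Lhx9 that were higher in run 2, 87 could be tested in run 1 with at least 30 UMIs; 77 had the same direction and 50 were called the same way, where 1.85% of all genes were called higher. Of the 172 lower genes, 95 could be tested, 89 had the same direction and 66 were called, where 5.16% were called lower. Tbr1 stood at 392 CPM (327 to 465) against 12.3, Eomes at 206 (160 to 262) against 17.1, Uncx at 419 against 108, Calb2 at 367 against 4.10 and Samd3 at 100 against 4.78. Crabp1 had the opposite direction, at 94.1 CPM (63.9 to 134) against 343 (313 to 374), and so did Tcf7l2, Shox2 and Pou4f1.

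The 345 cells were not uniform, and they were first divided by the T-box genes. The 264 cells with at least 3 Tbr1 and Eomes UMIs were compared with the 56 cells with none. Of 6592 genes tested, 129 were higher (1.96%) and 74 lower (1.12%) in the first group, Tbr1 and Eomes included, which chose the cells. Calb2 (203 CPM against 5.22), Samd3 (110 against 5.22), Nfib (100 against 4.17), Kitl (75.2 against 1.04), Nrp2 (198 against 16.7) and Epha3 (315 against 36.5) accompanied the T-box genes. Emx1, a homeodomain factor of the cortex, stood at 35.7 CPM against 0 UMIs, at least 11.4-fold higher. Uncx was higher with them at 666 CPM against 227, and Lhx2 was not called. The 56 cells without Tbr1 and Eomes had other transcription factors. Tcf7l2, the Wnt effector that is high in thalamic neurons, stood at 1060 CPM (996 to 1127) there against 13.7. Shox2, a homeodomain factor, stood at 520.0 against 1.60. Tfap2b, an AP-2 factor, stood at 289 against 0 UMIs, at least 422-fold higher. Otx2 (125 CPM against 2.06), Pou4f1 (153 against 12.1), Irx1 (104 against 0.686) and Isl1 (111 against 7.77) followed. Slc17a6 was 140 CPM in these cells and 313 in those with the T-box genes.

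The genes that were high without Tbr1 and Eomes came from few cells. A set chosen after the data were seen, with at least 10 UMIs of Crabp1, Shox2, Tcf7l2 and Tfap2b together, held 27 of the 345 cells (7.83%), and 3 of them also had at least 3 Tbr1 and Eomes UMIs. The same minimum on the sum was met by 132 of 2190 other neurons (6.03%). In E11 run 1 it was met by 1 of 31 Lhx9 neurons and 20 of 140 others. The genes behind the sum differed between groups. At least 10 UMIs of Tcf7l2 were held by 5.22% of the 345 Lhx9 neurons and by 26 of 2190 others (1.19%). In E11 run 1 they were held by 0 of 31 and 0 of 140 cells. Tcf7l2 reached 10 UMIs in 18 cells and Shox2 in 13, of which 10 overlapped. Crabp1 reached 10 UMIs in 12 cells, 5 of them with Tcf7l2, and 100 UMIs in 6. These 27 cells had a median depth of 18287 UMIs. A high doublet score was found in 5 of the 27, against 16 of the 264 cells with T-box genes. Their tdTomato stood at 99.97 CPM (75.3 to 130), against 285 CPM (270 to 302) in the cells with T-box genes. Their Lhx2 was 703 CPM (635 to 777) and their Barhl2 135 (106 to 169), while Uncx was 167 (135 to 205), Fezf1 30.9 and Rspo3 74.5. Genes not used to choose them included Ebf1, at 1205 CPM against 216 in the cells with T-box genes, Gap43 at 1256 against 165 and Otx2 at 171 against 2.06, found in 26, 22 and 16 of the 27 cells. The Gap43 level came mostly from a few cells, with a median of 4 UMIs per cell, a highest value of 193, and 92.5% of its 691 UMIs in 10 of the 27 cells. Gbx2, a homeodomain factor of the thalamus, had 25 UMIs in 5 of the 27 cells, 16 of them in 1 cell. Of the 12 thalamic, pretectal and midbrain genes listed, 10 had a UMI in the 56 cells without T-box genes and 8 in the 264 with them, with summed levels of 1562 and 33.8 CPM. Tcf7l2 and Tfap2b, which helped choose the 27 cells, are in that list and gave 1060 and 289 of the 1562 CPM. Whether these cells, or the other Lhx9 neurons, lay inside the hypothalamus was not tested. The higher pooled levels of these 4 genes against other neurons rested on the 27 cells, which were chosen by them. With cells that met the same minimum left out of both groups, the log2 ratios against other neurons were -0.54 for Crabp1, -0.80 for Shox2 and -1.44 for Tcf7l2, Tfap2b had too few UMIs to test, and 181 genes were called higher and 195 lower.

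A further 57 cells were in neither set. Lhx2 stood at 549 CPM and Uncx at 481, against 643 and 666 in the cells with T-box genes. They differed in Otp, at 353 CPM (314 to 396) against 98.97 in the cells with T-box genes, in Nkx2-1 (88.3 against 11.4) and in Isl1 (117 against 7.77), although these genes came from 18, 13 and 13 of the 57 cells. Slc17a6 was 179 CPM (151 to 210), found in 42 cells, against 313 CPM. The 14 GABA-type factors summed to 711 CPM against 336 in the cells with T-box genes, but the median was 2 UMIs per cell in both sets, and the highest cell held 110 of the 588 UMIs in the 57 cells.

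Differences along neuronal maturation were described by ordering the 318 cells without the 27 by the share of Stmn2 and Dcx in their UMIs and cutting the order into 3 bins of 106, a grouping made after the data were seen. Stmn2 and Dcx were also used to choose the cells, so their share defines the order and is not a result. The median share was 11.25, 30.2 and 42.2 per 10000 UMIs, and median depth was 14881.5, 14592 and 16515 UMIs. Several genes of newly committed cells stood highest in the low bin. Eomes stood at 442, 176 and 70.0 CPM from low to high, Neurog2 at 201, 55.0 and 37.3, and Gadd45g, a cell-cycle exit gene, at 323, 91.9 and 61.0. Hes6, a bHLH gene of committed precursors, stood at 384, 139 and 111. Nhlh2, another bHLH gene of young neurons, was highest in the middle bin, at 846, 1034 and 687. The mitotic genes Top2a and Mki67 stood at 170 and 93.0 CPM in the low bin and at 5.65 and 1.13 in the high bin. Tbr1 ran the other way, at 201, 358 and 413 CPM. Barhl2 (95.8, 185 and 227), Meis2 (107, 279 and 502) and Samd3 (10.7, 73.8 and 204) followed it. Calb2 stood at 7.89 CPM (4.31 to 13.2) in the low bin and 343 in the high bin, and Kitl, which encodes stem cell factor, at 13.0 and 112. The neurofilament genes Nefl (27.0, 178 and 431) and Nefm (80.6, 336 and 524) were ordered likewise.

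**Figure D3:**
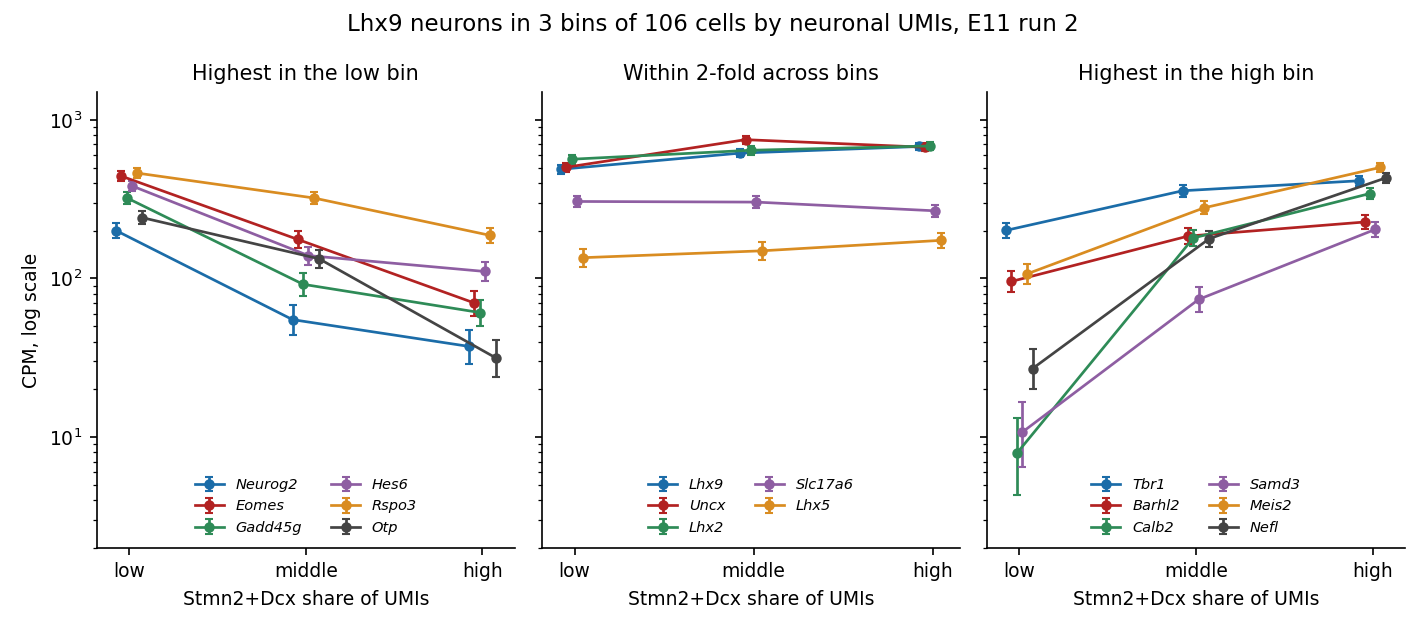
Level of 17 genes in 3 bins of 106 Lhx9 neurons, ordered by the share of Stmn2 and Dcx UMIs, in CPM on a logarithmic axis, with points joined for each gene and bars for 95% Poisson intervals (counting error only). Eomes and Neurog2 are highest in the low bin, Calb2, Samd3 and Nefl in the high bin, and Lhx2, Uncx and Slc17a6 differ by less than 2-fold. Lhx9, Stmn2 and Dcx were used to choose the cells, and Lhx9 is drawn for reference.

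Unlike Eomes and Tbr1, some genes differed by less than 2-fold along this order. Lhx2 stood at 565, 644 and 685, Uncx at 503, 751 and 673, and Slc17a6 at 306, 303 and 267. Lhx5 stood at 135, 149 and 174. Otp (242, 133 and 31.6) and Sim1 (118, 59.4 and 19.2) were highest in the low bin, as was Rspo3 (462, 322 and 187). At least 3 Tbr1 and Eomes UMIs were present in 84, 84 and 93 of the 106 cells.

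Genes found in only some of the Lhx9 neurons overlapped in particular pairs, counted here as cells with at least 3 UMIs of each gene, a description over cells of 1 library. Calb2 reached 3 UMIs in 55 cells, and 52 of them also had Tbr1 and 8 had Eomes, genes that reached it in 228 and 123 of all 345 cells. Lhx1, a LIM homeodomain factor, reached 3 UMIs in 92 cells and its relative Lhx5 in 113, with 68 cells shared, 73.9% of the Lhx1 cells and 60.2% of the Lhx5 cells. Calb2 shared 37 cells with Lhx1, which were 67.3% of the Calb2 cells and 40.2% of the Lhx1 cells, and 43 cells with Lhx5. Kitl reached 3 UMIs in 36 cells, 30 of them with Calb2. The neuroendocrine factors Otp and Sim1 shared 26 cells, 66.7% of the 39 Otp cells and 56.5% of the 46 Sim1 cells. Of the 39 Otp cells 24 also had Eomes (123 of all 345), 9 had Tbr1 (228 of 345) and 1 had Calb2 (55 of 345). Calb2 was highest in the high maturation bin and Otp in the low bin, so the place of a cell in that order differed along with these overlaps, and its part in them was not tested.

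The same rule applied to the other runs found fewer cells in each. In E14 run 2 there were 118 cells, 0.771% (0.639 to 0.923) of neurons, and in E14 run 1 there were 16 (5.46%). P0 gave 23 cells in run 1 (1.41%) and 71 in run 2 (0.929%), and P7 gave 26 (0.536%). The runs differed in depth, with a median of 8448 UMIs over all cells of E14 run 2 against 15369 in E11 run 2, and a fixed UMI minimum depends on it. The E14 runs had similar depth, with a median of 8198.5 UMIs in run 1, but unlike shares, 5.46% (3.15 to 8.72) in run 1 against 0.771%. With other thresholds or cells thinned to 5000 UMIs the share was between 0.444% and 1.67% in E14 run 2, 0.667% and 1.53% in P0 run 2, and 0.268% and 0.925% in P7. Each age is 1 sample, so age and library cannot be told apart, and the cells at a later age are not shown to descend from those at E11.

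In E14 run 2, Tbr1 stood at 66.6 CPM (53.6 to 81.7), Uncx at 50.5, Eomes at 3.66 and Crabp1 at 0.732. Slc17a6 stood at 71.0 CPM, against 276 in E11 run 2, and was found in 52 of the 118 cells. The 4 listed GABA genes summed to 159 CPM, against 24.9, and Gad1, Gad2 or Slc32a1 was found in 39 cells. The 16 cells of E14 run 1 differed from those of run 2, with Tbr1 at 124 CPM (93.0 to 163) and Uncx at 225. At least 3 Tbr1 and Eomes UMIs were present in 8 of the 16 (13 of 118 in run 2). A Slc17a6 UMI was found in 15 of them and a Gad1, Gad2 or Slc32a1 UMI in 10, with no Npvf or Hcrt UMI. The comparison with E11 used run 2 alone. Of 7604 genes tested, 510 were higher than at E11 (6.71%) and 553 lower (7.27%). Neuropeptide genes were among the highest ratios. Npvf, the precursor of RFamide peptides, had no UMI in the 345 cells at E11, which allows a share of cells with a UMI of up to 0.870% (3 of 345), and reached at least 3 UMIs in 23 of the 118 cells at E14 (19.5%, 12.8 to 27.8) and in 1 of 14925 neurons with no Lhx9 UMI. The 118 cells held 89.2% of the run's Npvf UMIs. Hcrt, the precursor of hypocretin, reached 3 UMIs in 10 cells and in none of the 14925 neurons without an Lhx9 UMI, and its UMIs were absent from the 345 cells at E11. The 118 cells held 62.5% of the run's Hcrt UMIs, and neurons with 1 or 2 Lhx9 UMIs were in neither group. Pmch, the melanin-concentrating hormone precursor, rested on 1 cell. Qrfp, another RFamide peptide gene, stood at 196 CPM against 4.39, and Vgll2, a transcriptional cofactor, at 469 against 14.4.

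At E14, 6.71% of all genes tested were higher and 7.27% lower. Among regulators, 8 of 14 tuberal and anterior factors tested were higher at E14 and 3 lower. The higher ones included Nkx2-2 (116 CPM against 5.62), Hmx2 (154 against 16.2) and Nkx2-1 (88.5 against 23.7). The lower ones were Fezf1 (29.997 CPM against 195), Sim1 (5.85 against 62.3) and Pou3f2 (32.9 against 135). The lower Fezf1 level was particular to run 2: in the 16 cells of E14 run 1 Fezf1 stood at 163 CPM (126 to 206). Nkx2-1 stood at 105 CPM (76.5 to 141) in run 1. Of 11 T-box and pallial-type genes 8 were lower and Reln, a secreted glycoprotein, was higher (34.4 CPM against 13.9), and of 14 proneural genes 10 were lower and none higher. Neurog2 stood at 0.732 CPM against 101 and Rspo3 at 9.51 against 300. In E14 run 1 Rspo3 stood at 108 CPM (78.6 to 144), from 6 of the 16 cells. Of 22 maturation genes 10 were higher and Nefm was lower (101 CPM against 396). Among the higher were Gap43 at 1897 CPM against 310 and Mapt, the microtubule protein tau, at 1135 against 212. Other values differed with age: the haemoglobin genes summed to 8.05 CPM against 459, and cells with an Xist but no Y-linked UMI were 90.2% of those with either alone, against 29.8% at E11. Their part in the comparison was not tested.

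At P0 Tcf7l2 stood at 1618 CPM in run 1 and 1742 in run 2, against 77.4 and 60.5 in neurons without an Lhx9 UMI, and reached 10 UMIs in 16 of 23 and 43 of 71 cells, against 18 of 345 in E11 run 2 and 2 of 118 in E14 run 2. Shox2 stood at 84.4 and 122 CPM. Tbr1 was at 4.69 and 0.793 CPM. At P7 Tcf7l2 and Tbr1 had no UMI in 26 cells. Slc17a6 was found in 25 of them, and Gad1, Gad2 or Slc32a1 in 13. Eomes reached 3 UMIs in 6 cells (78.7 CPM, 59.5 to 102, against 0.383 in other neurons), and Npvf stood at 742 CPM from 3 cells.

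**Figure D4:**
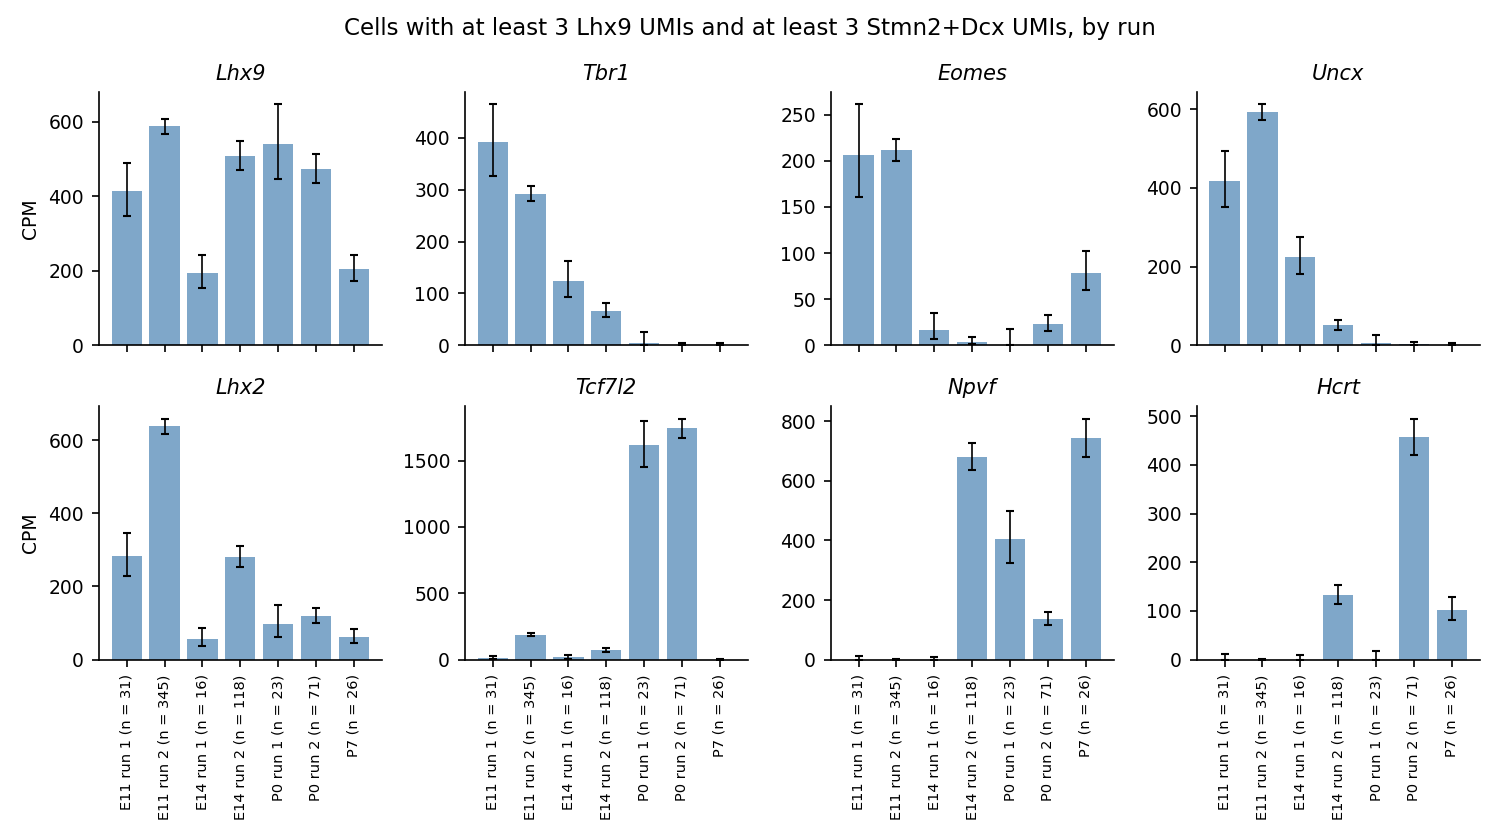
Level of 8 genes in cells with at least 3 Lhx9 UMIs and at least 3 Stmn2 and Dcx UMIs in each of the 7 runs (number of cells under each bar), in CPM on linear axes that start at 0, with 95% Poisson intervals (counting error only). Tbr1 and Uncx are highest in the E11 runs, Tcf7l2 in the P0 runs, and Npvf and Hcrt have no UMI at E11.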

How the data were processed

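Single-cell UMI counts were taken from the authors' deposited integrated table (28879 genes, 43261 cells), which holds whole-number raw counts per gene and cell, not normalized. The submitters' processing notes name Cell Ranger 3.0.2, Seurat and mm10, without saying what each was used for, and how cells were filtered before deposit is not given in the sources used here. Cells were assigned to 4 samples by the age in their names. The cells described and the gene lists (28) were chosen with earlier results of these data known.

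Counts were summed over the cells of a group and scaled to CPM. Python 3.11.15, numpy 2.4.6 and scipy 1.17.1 were used, with matplotlib 3.10.9 for figures. Genes needed at least 100 UMIs over both groups (30 in E11 run 1), and a ratio of CPM with 5 added of at least 2-fold, in either direction, was called. With 1 sample per age there is no replicate, and no p-value was computed. Ratio intervals are exact binomial intervals on the counts. Where a group had no UMI, the fold is a bound set at 3 counts over that group. For shares of cells, each cell was thinned once to 3000 UMIs.

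Named genes were the 12 highest and 12 lowest ratios among called genes of at least 20 CPM, without the genes of the rule, sex-linked, mitochondrial, ribosomal and predicted genes, plus genes of the lists. The 27-cell set, the maturation bins and the gene pairs counted together, with genes described in them, were chosen after the data were seen. Scrublet, run through Scanpy 1.11.5 in each run, found no threshold in E11 run 2, so the top 5% of scores (215 cells) were treated as possible doublets; they were kept in the main values and left out as an alternative. Other alternatives changed the added CPM, the UMI minimum, the rule's thresholds, pooling, thinning, sex of the cells and the comparison cells. Some genes are not reported here.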

Additional observations from a re-analysis of the deposited data

How the results depend on the processing

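Of 3791 ratios of named genes under alternatives that can move a gene's own ratio (other UMI minimums cannot, and are left out), 2505 lay inside the counting interval of the ratio reported, 1263 lay outside it and 23 took the opposite direction. Against other neurons, 404 genes were lower with 1 CPM added, 72 were higher and 64 lower with 20 CPM added, and 329 were lower in E11 run 1. Against other glutamate neurons, 59 were higher and 58 lower with 20 CPM, 70 and 80 at 300 UMIs or more, and 69 and 58 among cells that held Xist but none of the Y-linked genes (Xist cells). Against GABA neurons the counts were 119 and 87 with 20 CPM, 147 higher at 300 UMIs, and 135 and 122 in Xist cells. For E14 against E11 they were 311 and 252 with 20 CPM, 845 higher at 30 UMIs, and 215 and 298 at 300 UMIs. For the Tbr1 and Eomes split they were 80 and 46 with 20 CPM, 221 and 193 at 30 UMIs, 74 and 21 at 300 UMIs, and 30 lower in Xist cells. Fewer genes or cells enter at a higher minimum or in cells of 1 sex; for the others the cause was not tested.

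Some genes took the opposite direction (log2 ratios follow). With cells of at least 10 Crabp1, Shox2, Tcf7l2 and Tfap2b UMIs left out of both groups, an alternative chosen after seeing the data, Crabp1 was -0.54, Shox2 -0.80 and Tcf7l2 -1.44 against other neurons, and Tcf7l2 -0.58 against other glutamate and -1.002 against GABA neurons. With the 27 cells left out of the Lhx9 neurons alone, which lowers these genes by construction, Crabp1 was -2.39, Shox2 -1.40, Tcf7l2 -2.11 and Tfap2b -1.25 against other neurons, Shox2 -1.78 and Tcf7l2 -1.12 against other glutamate neurons, and Crabp1 -0.62, Tcf7l2 -2.502 and Tfap2b -1.75 against GABA neurons. Another alternative kept only the Lhx9 neurons with at least 3 Tbr1 and Eomes UMIs together, 3 of which are among the 27. There the log2 ratios were Crabp1 -1.57, Shox2 -1.66, Tcf7l2 -1.49 and Tfap2b -1.25 against other neurons. In E11 run 1 they were Crabp1 -1.81, Ebf1 -0.50, Pou4f1 -4.24, Shox2 -3.22 and Tcf7l2 -1.44.

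The share of E11 run 2 neurons was 14.6% at Lhx9 of at least 2, 10.2% at 5 and 14.46% at Stmn2 and Dcx of at least 10. For E14 run 2 it was 1.17%, 0.444% and, with cells thinned to 5000 UMIs and both thresholds lowered to 1 UMI (the thinned rule, which changes depth and thresholds together), 1.67%. For P0 run 2 it was 1.31%, 0.667%, 1.19% at Stmn2 and Dcx of 10, and 1.53% with the thinned rule. For P7 it was 0.268% at Lhx9 of 5 and 0.925% at Stmn2 and Dcx of 10. Slc17a6 was found in 88.7% of Lhx9 neurons without thinning, 65.6% at 5000 UMIs, 22.3% at 2 UMIs or more and 45.2% with the thinned rule, and GABA genes in 7.25%, 3.79% and, with the thinned rule, 4.85%. Without thinning Tbr1 was found in 75.4%, Eomes in 52.8% and Uncx in 89.3%. The comparison with Lhx9 cells of few neuronal UMIs was not run, since it would rest on 7 cells. No paired analysis was possible because each age has 1 sample.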
